A study of Mus musculus with 8 samples.

Results

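The cholesterol and fatty acid synthesis module described here is a set of 34 mouse genes, listed by name for their part in sterol and lipid metabolism. The list was drawn up with earlier results of these data known, and Fdft1 was set apart for its value of 0. It was followed in NIH3T3, an established line of mouse embryo fibroblasts that reacts to Hedgehog (Hh) ligand. The cells had been stably transfected with an empty pcDNA3.1 (Zeo+) vector (NIH3T3-pc3.1) or with the same vector carrying Esrrb, the nuclear receptor estrogen related receptor β (NIH3T3-Esrrb), and selected with Zeocine. They were then given conditioned medium for 48 h, diluted 1:100, from HEK293 cells, a human embryonic kidney line. All cells were grown in 10% newborn calf serum and treated in 5%. Hh-CM came from HEK293 cells with a transgene for the N-terminus of Sonic Hedgehog, and the vehicle came from HEK293 cells without it. This gave 4 groups of 2 samples. Control was NIH3T3-pc3.1 with vehicle and Hh-CM was NIH3T3-pc3.1 with Hh-CM. Esrrb was NIH3T3-Esrrb with vehicle, and Esrrb+Hh-CM was NIH3T3-Esrrb with Hh-CM. All cells carried a vector and had passed Zeocine selection. The study made 2 transfections and pooled the selected cells, so that the cells were pools and not clones. Its wording does not say whether the 2 transfections were kept apart or merged. The study's methods call the 2 samples of a group biological replicates without saying at which step they were separate, so that p-values measure the spread between these samples, which may be in part technical.

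Cells make cholesterol from acetyl-CoA through mevalonate, farnesyl diphosphate, squalene and lanosterol, and make fatty acids from the same acetyl-CoA. The transcription factors SREBP1 and SREBP2, encoded by Srebf1 and Srebf2, drive the genes of both routes. They are escorted from the endoplasmic reticulum by Scap and held there by the Insig proteins when sterol is plentiful. Sterols also enter Hedgehog signalling itself, since the ligand carries cholesterol and the transducer Smoothened binds sterols.

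RNA abundance was taken from the deposited FPKM (fragments scaled by transcript length and by the number of fragments mapped), a level that can be compared between genes. Each gene was read from the row of each sample's table whose mm9 locus overlapped the annotated gene best. Of the 34 members, 29 had such a row in all 8 samples, and all 29 passed the limit of FPKM 1 in at least 2 samples. One of them, Fdft1, was listed at 0 in both samples of a group and is described apart, which leaves 28 members. Hmgcs1, Acat2, Tm7sf2, Nsdhl and Scd2 had no usable row in at least 1 sample and are also described apart. Differences are log2 differences of FPKM + 0.1 from limma, fitted to 10284 genes, and a gene passed at a Benjamini-Hochberg adjusted p below 0.05 over those genes.

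The samples are called by their labels throughout. Esrrb itself was listed at 0 in all 4 samples labelled Esrrb or Esrrb+Hh-CM, and at most at FPKM 0.0281 elsewhere, so these tables show no vector transcript and every direction given for Esrrb rests on the labels. The study reports more Esrrb protein in NIH3T3-Esrrb than in NIH3T3-pc3.1 cells by Western blot, which was not analysed here. Summed FPKM of the Hedgehog targets Gli1 and Ptch1 was 2.47 to 3.19 in the 4 vehicle samples and 63.8 to 82.4 in the 4 samples with Hh-CM. Hhip, the third target listed, was at 0 in all 8 samples. All 9 matched fibroblast markers were at FPKM 1 or more, against 0 of 6 epithelial, 0 of 4 hepatocyte, 1 of 4 endothelial and 2 of 6 immune markers. The endothelial sum, mostly Tek, was 0.081 to 0.143 in vehicle and 1.19 to 1.67 in Hh-CM samples, and its part in the Hh-CM results was not tested. With Control replicate 1 set to 1, relative depth read from the steps between low FPKM values was lowest at 0.743 (Esrrb+Hh-CM replicate 2) and highest at 1.55 (Hh-CM replicate 2). The table of Esrrb replicate 1 held 16753 loci numbered by Cufflinks, of which 8080 had the same number and position in the table of Hh-CM replicate 2, where any other pair of tables shared at most 106. The FPKM of these 2 tables differed, but Esrrb replicate 1 also had 480 rows marked as low data against 62 to 78 in the others. Counts are given with all samples, and for some comparisons also without a sample of the compared groups. Their range with each sample left out singly is given at the end, and these 2 were never left out together. Counts with a sample left out can include members that did not pass with all samples.

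Npc2, a lysosomal carrier of free cholesterol, had the highest level of the 28 members in Control, Esrrb and Esrrb+Hh-CM samples, with means of 146 to 212 FPKM over the 4 groups. Abca1, the exporter that loads cholesterol onto apolipoprotein A-I, was the lowest in all groups with 1.82 to 3.93. Between replicates the median member differed on the log2 scale by 0.06 for Control, 0.09 for Esrrb+Hh-CM, 0.10 for Esrrb and 0.11 for Hh-CM samples. The widest gap was that of Fads1, the delta-5 fatty acid desaturase, at 309.5 FPKM in Hh-CM replicate 1 and 98.6 in Hh-CM replicate 2, where the first value comes from a locus that overlaps the annotated gene by only 0.56 of their joint length. The other 7 samples lay between 83.9 and 103.

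**Figure D1:**
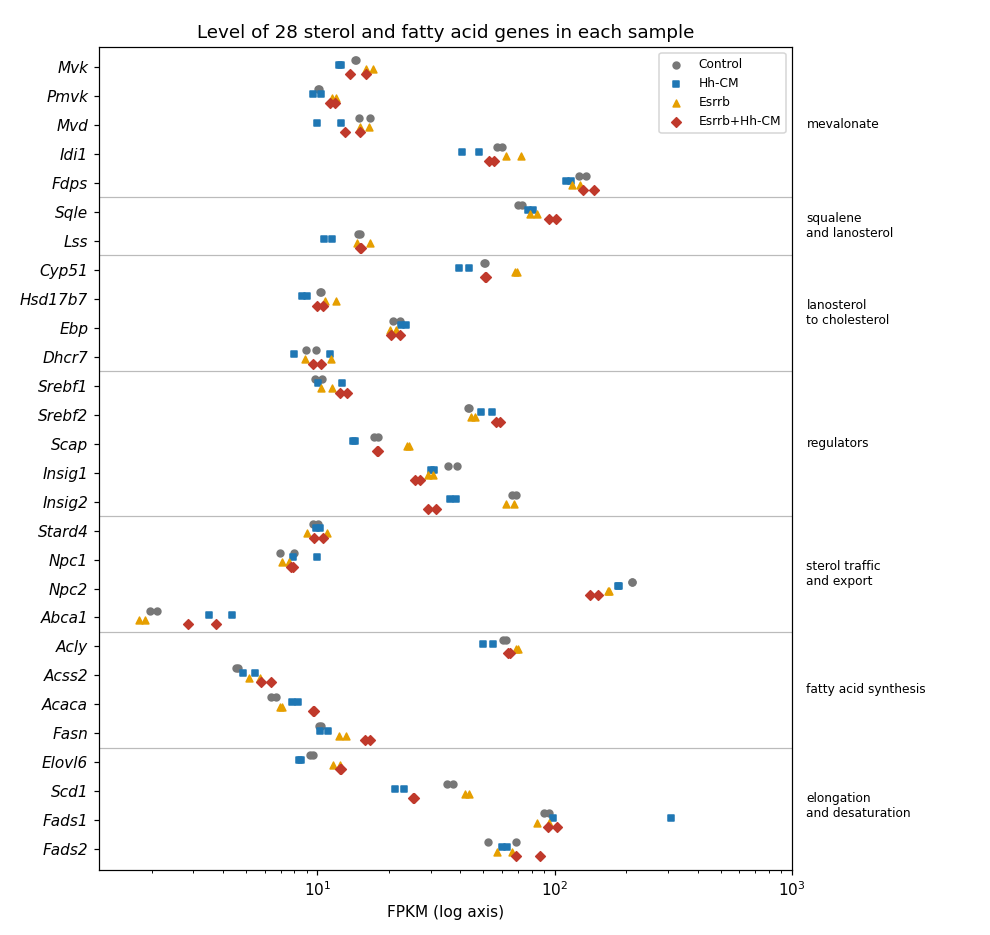
FPKM (log axis) of the 28 members in each of the 8 samples, with 1 point a sample, coloured by group and ordered by role. Most members keep within a narrow band, while Insig2, Scd1 and Abca1 separate the samples with Hh-CM from those without, and 1 point of Fads1 in Hh-CM stands alone at 309.5.

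Promoter sequence was available for 26 of the member genes, with 34 starts, from the RefSeq table of GRCm38.p6 (250 bases before to 50 after each start). Fdft1, Sqle, Fdps, Stard4, Npc1, Scd1, Scd2 and Fads1 had no entry. The letters CCAAT, which the factor NF-Y reads beside SREBP, were found on either strand in 21 of the 34 member promoters (61.8%) and in 37.4% of all 32851 promoters. The E-box CACGTG was in 6 (17.6%, against 7.15% of all). A sterol regulatory element, TCACNCCAC, was in 1, that of Hmgcs1 (2.94%, against 1.24%). The response element of the Esrrb family, TCAAGGTCA, and the Gli motif, GACCACCCA, were in none of the 34, against 0.423% and 0.253% of all promoters. At shares this low, finding none among 34 cannot tell the members from all promoters. Each match is a description of letters, all were searched on both strands, and promoters of 1 gene can overlap. The 120 bases before the start are shown for 5 members that passed the test, picked after their values were seen: Insig2, which changed most, Cyp51, Lss and Idi1, which fell with Hh-CM, and Fasn, which rose with both treatments together. They are written 5′ to 3′ along the gene, with CCAAT or its reverse complement in capitals. The positions are those of an exact match in NCBIM37 (mm9).
Insig2, first start, chr1:123229167-123229286, minus strand: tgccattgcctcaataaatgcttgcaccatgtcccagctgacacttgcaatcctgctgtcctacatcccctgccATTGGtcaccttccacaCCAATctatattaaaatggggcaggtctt
Insig2, second start, chr1:123224602-123224721, minus strand: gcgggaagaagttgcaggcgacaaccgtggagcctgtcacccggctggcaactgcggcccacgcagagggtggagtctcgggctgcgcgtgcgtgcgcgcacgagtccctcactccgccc
Cyp51, chr5:4104698-4104817, minus strand: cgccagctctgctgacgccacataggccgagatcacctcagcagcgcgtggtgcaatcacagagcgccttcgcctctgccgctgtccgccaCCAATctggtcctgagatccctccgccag
Lss, chr10:75994230-75994349, plus strand: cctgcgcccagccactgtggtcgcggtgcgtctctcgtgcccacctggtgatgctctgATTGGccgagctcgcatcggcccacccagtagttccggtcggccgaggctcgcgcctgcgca
Idi1, chr13:8884732-8884851, plus strand: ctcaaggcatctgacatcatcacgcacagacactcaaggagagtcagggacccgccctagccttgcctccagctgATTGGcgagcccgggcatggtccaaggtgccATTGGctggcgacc
Fasn, chr11:120685862-120685981, minus strand: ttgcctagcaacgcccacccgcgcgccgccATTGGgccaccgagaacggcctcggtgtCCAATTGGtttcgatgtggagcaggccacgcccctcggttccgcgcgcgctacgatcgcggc
The first Insig2 start holds 2 such matches and the second none, Cyp51 and Lss hold 1 each, Idi1 holds 2, and Fasn holds 3, of which a pair shares letters.

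Among the regulators, Insig2, an anchor that retains the SREBP escort in the endoplasmic reticulum, changed most. It lies on mm9 chromosome 1 from 123200930 to 123229166. Its FPKM was 65.8 and 68.4 in Control, 38.2 and 36.2 in Hh-CM, 67.2 and 62.3 in Esrrb, and 29.2 and 31.6 in Esrrb+Hh-CM samples. All 4 samples with Hh-CM lay below all 4 with vehicle, and the Esrrb+Hh-CM samples were the lowest. With Hh-CM it fell by 0.85 on the log2 scale in NIH3T3-pc3.1 (SE 0.062, adjusted p = 0.000679) and by 1.09 in NIH3T3-Esrrb cells (SE 0.062, adjusted p = 0.000171). It was 0.29 lower in Esrrb+Hh-CM than in Hh-CM samples (SE 0.062, adjusted p = 0.0267), whereas Esrrb and Control samples overlapped (log2 difference -0.05, 95% interval -0.21 to 0.10).

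Insig1, its paralog and itself an SREBP target, was at 38.6 and 35.6 FPKM in Control, 30.03 and 30.84 in Hh-CM, 30.6 and 29.2 in Esrrb, and 27.0 and 25.8 in Esrrb+Hh-CM samples. Control samples were the highest and Esrrb+Hh-CM samples the lowest, with Hh-CM and Esrrb samples overlapping between them. Against Control it fell by 0.28 with Hh-CM, by 0.31 with Esrrb and by 0.49 with both (SE 0.055 each, adjusted p = 0.0201, 0.0186 and 0.00150). Scap, which carries SREBP to the Golgi, was at 17.4 and 18.0 in Control, 14.4 and 14.1 in Hh-CM, 23.9 and 24.4 in Esrrb, and 17.9 and 18.1 in Esrrb+Hh-CM samples. It was lowest with Hh-CM alone and highest with Esrrb alone, and Esrrb+Hh-CM samples stood at the level of Control. Scap fell by 0.30 and by 0.43 with Hh-CM in the empty-vector and Esrrb cells (SE 0.041 each, adjusted p = 0.00597 and 0.00116). It was 0.45 higher in Esrrb than in Control and 0.33 higher in Esrrb+Hh-CM than in Hh-CM samples (adjusted p = 0.00239 and 0.00600).

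Srebf2, the regulator tied most closely to cholesterol synthesis, was at 43.6 and 43.0 FPKM in Control, 49.0 and 54.5 in Hh-CM, 46.3 and 44.3 in Esrrb, and 59.0 and 56.3 in Esrrb+Hh-CM samples. The 4 samples with Hh-CM lay above the 4 with vehicle. It rose by 0.25 with Hh-CM in NIH3T3-pc3.1 (SE 0.060, adjusted p = 0.0373) and by 0.35 in NIH3T3-Esrrb cells (adjusted p = 0.0102), and was 0.41 above Control in Esrrb+Hh-CM samples (adjusted p = 0.00403). Srebf1, the regulator tied most closely to fatty acid synthesis, was at 10.5 and 9.78 in Control, 10.1 and 12.7 in Hh-CM, 10.3 and 11.5 in Esrrb, and 12.5 and 13.4 in Esrrb+Hh-CM samples. It passed in no comparison. Its log2 difference between Control and Esrrb+Hh-CM was 0.35 (95% interval 0.05 to 0.65, adjusted p = 0.0703).

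**Figure D2:**
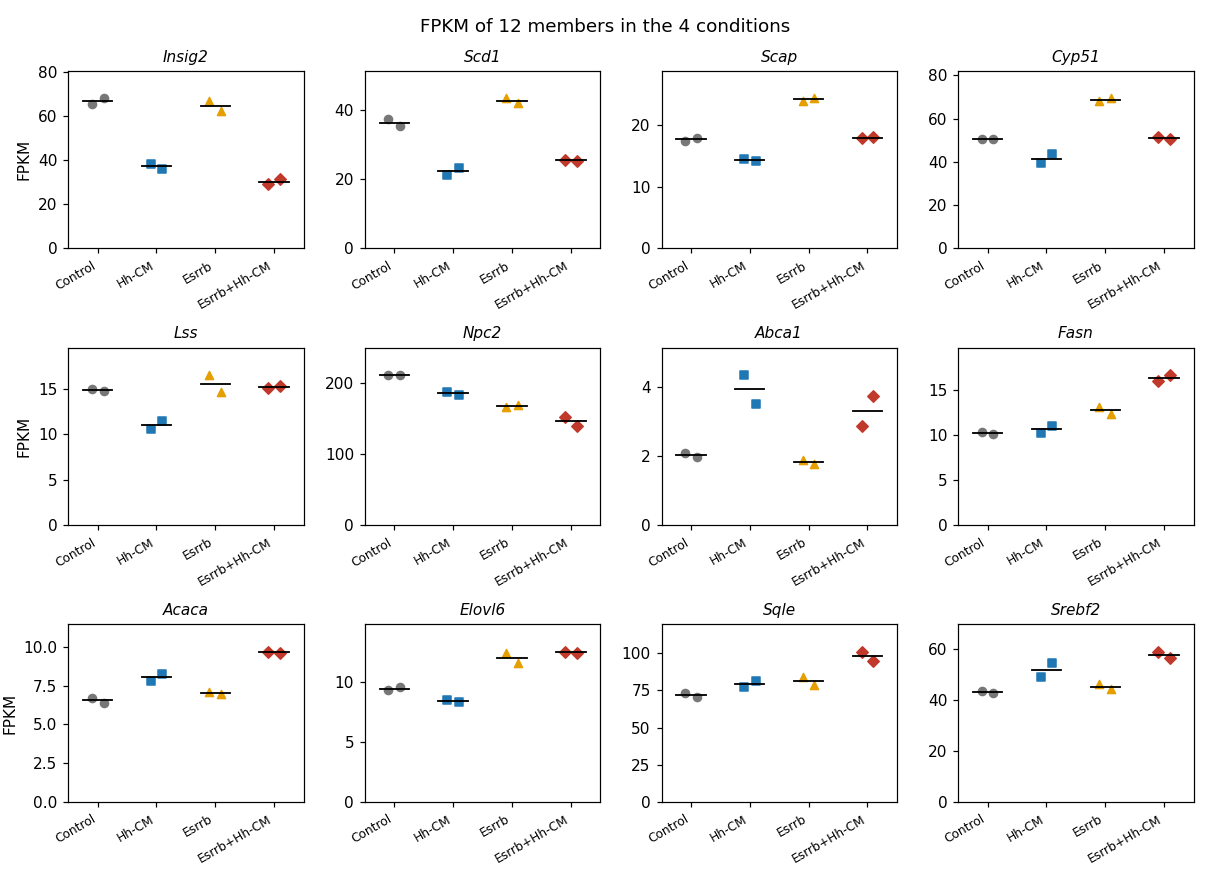
FPKM (from 0) of 12 members in the 4 groups, with 1 point a sample and a bar at the mean of 2 samples. Insig2 and Scd1 are lower in all 4 samples with Hh-CM, Npc2 steps down from Control at 212 to Esrrb+Hh-CM at 146, and Fasn, Acaca, Sqle and Srebf2 are highest in Esrrb+Hh-CM samples.

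In the mevalonate part, which makes the isoprenoid building blocks, 5 members could be tested. Mean FPKM was 12.5 to 16.6 for the mevalonate kinase Mvk, 9.97 to 11.7 for the next kinase Pmvk, 11.3 to 15.8 for the decarboxylase Mvd, 44.3 to 67.1 for the isomerase Idi1, and 114 to 139 for Fdps, which makes farnesyl diphosphate. All 5 had a log2 difference below 0 with Hh-CM against Control, from -0.50 to -0.02, but only Idi1 passed, falling by 0.41 (SE 0.099, adjusted p = 0.0413). Mvd missed the threshold at -0.50 (SE 0.130, adjusted p = 0.0504), with 16.67 and 15.02 in Control against 9.99 and 12.5 in Hh-CM samples. Between Hh-CM and Esrrb+Hh-CM all 5 differences were above 0, from 0.22 to 0.33, and Fdps was the member that passed, rising by 0.29 (SE 0.071, adjusted p = 0.0422).

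Past farnesyl diphosphate, Sqle, the squalene epoxidase, was at 73.0 and 70.2 FPKM in Control, 77.5 and 81.3 in Hh-CM, 84.2 and 78.7 in Esrrb, and 101 and 94.4 in Esrrb+Hh-CM samples. Esrrb+Hh-CM samples lay above all others. It rose by 0.45 against Control (SE 0.055, adjusted p = 0.00212), by 0.30 against Hh-CM (adjusted p = 0.0182) and by 0.26 against Esrrb samples (adjusted p = 0.0208), and did not pass with either treatment alone. Lss, which closes the ring to lanosterol, was at 15.1 and 14.8 in Control, 10.7 and 11.5 in Hh-CM, 16.6 and 14.6 in Esrrb, and 15.2 and 15.3 in Esrrb+Hh-CM samples. The Hh-CM samples stood below the other 6, which overlapped. Lss fell by 0.43 with Hh-CM in NIH3T3-pc3.1 cells (SE 0.074, adjusted p = 0.0139) and was 0.46 higher in Esrrb+Hh-CM than in Hh-CM samples (adjusted p = 0.0122). In NIH3T3-Esrrb cells its difference with Hh-CM was -0.03 (95% interval -0.21 to 0.15).

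Cyp51, the lanosterol demethylase, was at 50.5 and 50.6 FPKM in Control, 39.6 and 43.4 in Hh-CM, 68.0 and 69.6 in Esrrb, and 51.3 and 50.7 in Esrrb+Hh-CM samples. As for Scap, Hh-CM samples were the lowest and Esrrb samples the highest, with Esrrb+Hh-CM at the level of Control. Cyp51 fell by 0.29 and 0.43 on the log2 scale with Hh-CM in the 2 kinds of cell (SE 0.050 each, adjusted p = 0.0143 and 0.00225). It rose by 0.44 with Esrrb in vehicle and by 0.30 in Hh-CM (adjusted p = 0.00444 and 0.0137). The later enzymes Hsd17b7 (group means 8.81 to 11.4), Ebp (20.9 to 23.0) and Dhcr7 (9.41 to 10.2), which finish the sterol ring and side chain, passed in no comparison. Their log2 differences ran from -0.22 to 0.22 over the 5 comparisons.

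Of the genes for sterol traffic and export, Npc2 was at 212 and 211 FPKM in Control, 187 and 184 in Hh-CM, 167 and 169 in Esrrb, and 152 and 140 in Esrrb+Hh-CM samples. No groups overlapped, and it is the only member that passed in all 5 comparisons. The log2 decreases were 0.19 and 0.20 with Hh-CM, 0.33 and 0.35 with Esrrb, and 0.54 with both (SE 0.044 each, adjusted p = 0.0358, 0.0229, 0.00746, 0.00623 and 0.000460). Abca1 was at 2.10 and 1.96 in Control, 4.354 and 3.498 in Hh-CM, 1.87 and 1.77 in Esrrb, and 2.86 and 3.73 in Esrrb+Hh-CM samples. All samples with Hh-CM were above all samples with vehicle, and the replicates with Hh-CM were farther apart than those without. It rose by 0.91 with Hh-CM in NIH3T3-pc3.1 and by 0.81 in NIH3T3-Esrrb cells (SE 0.168 each, adjusted p = 0.01721 and 0.01997). Stard4, a cytosolic sterol carrier, and Npc1, the lysosomal membrane partner of Npc2, had group means of 9.81 to 10.1 and 7.34 to 8.91 FPKM and passed in no comparison.

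Of the fatty acid synthesis genes, Fasn, the fatty acid synthase, was at 10.3 and 10.1 FPKM in Control, 10.22 and 11.04 in Hh-CM, 13.1 and 12.3 in Esrrb, and 15.9 and 16.7 in Esrrb+Hh-CM samples. Control and Hh-CM samples overlapped, Esrrb samples were above both and Esrrb+Hh-CM samples were the highest. Fasn rose by 0.31 with Esrrb in vehicle and by 0.61 in Hh-CM (SE 0.062 each, adjusted p = 0.0253 and 0.00320), and by 0.35 with Hh-CM in NIH3T3-Esrrb cells (adjusted p = 0.0111). In NIH3T3-pc3.1 cells its difference with Hh-CM was 0.06 (95% interval -0.10 to 0.21). Acaca, the acetyl-CoA carboxylase that commits carbon to this route, was at 6.70 and 6.39 in Control, 7.79 and 8.25 in Hh-CM, 7.10 and 6.97 in Esrrb, and 9.69 and 9.60 in Esrrb+Hh-CM samples. It was highest in Esrrb+Hh-CM samples and next in Hh-CM samples. Acaca rose with Hh-CM by 0.29 and by 0.45 in the empty-vector and Esrrb cells (SE 0.058 each, adjusted p = 0.0230 and 0.00346).

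Acly, which supplies cytosolic acetyl-CoA from citrate, was at 62.1 and 60.3 FPKM in Control, 49.7 and 54.7 in Hh-CM, 70.0 and 68.9 in Esrrb, and 63.8 and 64.5 in Esrrb+Hh-CM samples. The Hh-CM samples were below all others and the Esrrb samples above all others. Acly fell by 0.23 with Hh-CM in NIH3T3-pc3.1 cells (SE 0.051, adjusted p = 0.0316) and was 0.30 higher in Esrrb+Hh-CM than in Hh-CM samples (adjusted p = 0.0147). Acss2, which makes acetyl-CoA from acetate, had group means of 4.59 to 6.08 and passed between Control and Esrrb+Hh-CM (0.40 higher, SE 0.096, adjusted p = 0.0244).

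Scd1 and Elovl6 shape the fatty acids that Fasn releases. Scd1, the stearoyl-CoA desaturase at mm9 chromosome 19 from 44468941 to 44482199, was at 37.2 and 35.3 FPKM in Control, 21.3 and 23.2 in Hh-CM, 43.4 and 41.8 in Esrrb, and 25.6 and 25.2 in Esrrb+Hh-CM samples. All samples with Hh-CM were below all samples with vehicle. Scd1 fell by 0.70 in NIH3T3-pc3.1 and by 0.74 in NIH3T3-Esrrb cells (SE 0.056 each, adjusted p = 0.000938 and 0.000473), and was 0.23 higher in Esrrb than in Control samples (adjusted p = 0.0426). Elovl6, which lengthens palmitate, was at 9.31 and 9.55 in Control, 8.54 and 8.33 in Hh-CM, 12.4 and 11.6 in Esrrb, and 12.5 and 12.4 in Esrrb+Hh-CM samples. The 4 samples labelled with Esrrb were above the other 4. Elovl6 rose by 0.35 with Esrrb in vehicle and by 0.56 in Hh-CM (SE 0.054 each, adjusted p = 0.0123 and 0.00269). Fads1 passed in no comparison with all samples, and its log2 difference between Control and Hh-CM was 0.92 with that sample and 0.09 without it. Fads2, the delta-6 desaturase, had group means of 60.5 to 77.6 and passed in no comparison.

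The first comparison asked what Hh-CM does in NIH3T3-pc3.1 cells. Of the 28 members 12 passed. The 9 that fell were Insig2, Scd1, Lss, Idi1, Scap, Cyp51, Insig1, Acly and Npc2, and the 3 that rose were Abca1, Acaca and Srebf2. They were spread over all 7 roles, with 4 of the 5 regulators among them. The share that fell was 32.1% of members, where 7.53% of all genes tested fell, and the share that rose was 10.7%, where 10.5% of all genes rose. The median log2 difference was -0.09 for the members and 0.04 for all genes tested. None passed the added limit of a log2 difference of 1 in size, which 2.76% of all genes did. With FPKM rescaled to equal medians the split was 3 up and 11 down. Insig2, Scap and Scd1 passed under every alternative fit. Fewer members passed with a Control or Hh-CM sample left out. Acaca, Insig1, Npc2 and Srebf2 no longer passed without Hh-CM replicate 2.

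With Hh-CM in the cells labelled Esrrb (Esrrb against Esrrb+Hh-CM), 10 members passed, 5 in each direction. Abca1, Acaca, Fasn, Srebf2 and Sqle rose, and Insig2, Scd1, Cyp51, Scap and Npc2 fell. Each direction held 17.9% of the members, where 13.9% of all genes rose and 9.49% fell. The median difference was 0.00091 for members and 0.04 for all genes. With FPKM rescaled to equal medians the split was 5 up and 7 down. Only Insig2 passed the added fold limit, as 4.81% of all genes did. Acaca, Cyp51, Insig2, Scap and Scd1 passed in every alternative fit and were the 5 that passed without Esrrb replicate 2, while without Esrrb replicate 1 the count was 8.

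**Figure D3:**
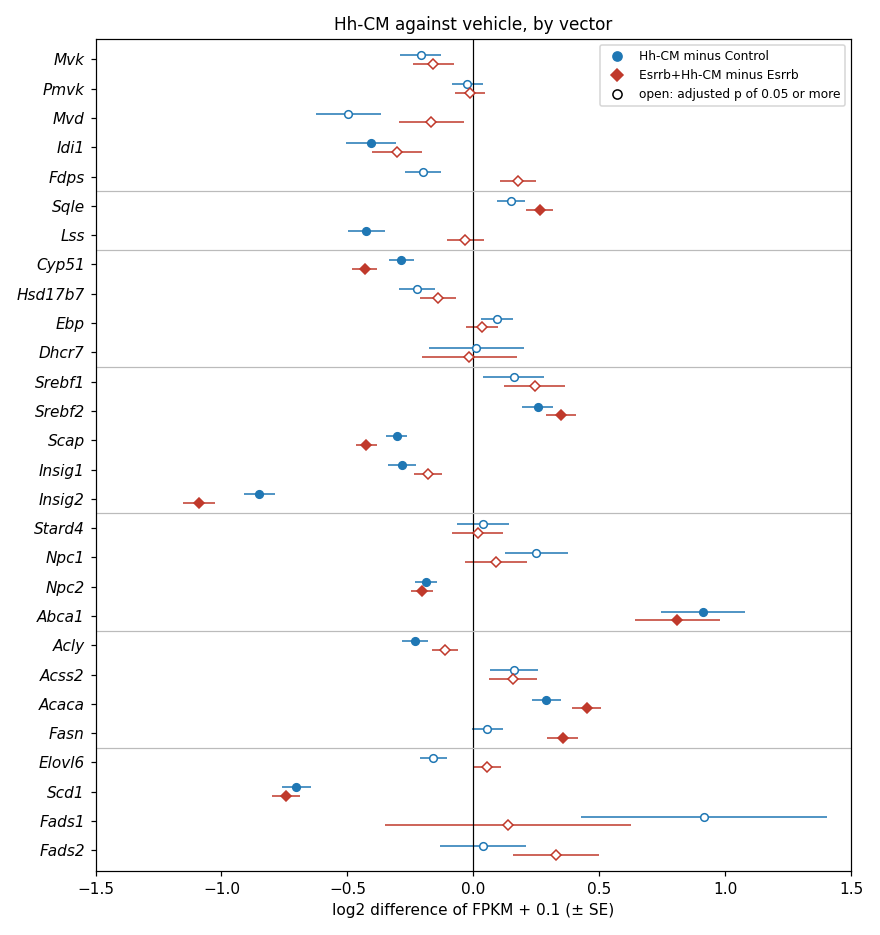
Log2 difference of FPKM + 0.1 with Hh-CM (mean of 2 samples minus mean of 2, with SE) in NIH3T3-pc3.1 cells (circles) and in NIH3T3-Esrrb cells (diamonds) for the 28 members. Filled symbols passed the adjusted p. Insig2 and Scd1 lie farthest to the left in both, Abca1 (0.91 and 0.81) is the filled symbol farthest to the right in both, and Fads1, at 0.92 in NIH3T3-pc3.1 cells and open, has the widest error.

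In vehicle, Esrrb against Control, 7 members passed on the labels given. Scap, Cyp51, Elovl6, Fasn and Scd1 rose, and Npc2 and Insig1 fell. The 5 that rose are 17.9% of members, where 10.2% of all genes rose, and the 2 that fell are 7.14%, where 6.16% of all genes fell. No member passed the added fold limit, which 1.47% of all genes did, and the median difference was 0.10 for members and 0.05 for all genes. With FPKM rescaled to equal medians the split was 4 up and 2 down. Cyp51, Npc2 and Scap passed in every alternative fit and were the 3 left without Control replicate 1 or without Esrrb replicate 1. The count was 4 without Control replicate 2 or Esrrb replicate 2.

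In Hh-CM, Esrrb+Hh-CM against Hh-CM, 11 members passed. Fasn, Elovl6, Lss, Scap, Acly, Sqle, Cyp51, Fdps and Acaca rose, which puts both synthesis routes among them, and Npc2 and Insig2 fell. The rising share was 32.1% of members, where 12.4% of all genes rose, and the falling share was 7.14%, where 6.52% of all genes fell. None passed the added fold limit, as 1.97% of all genes did, and the median difference was 0.23 for members and 0.05 for all genes. With FPKM rescaled to equal medians the split was 7 up and 3 down. Elovl6, Fasn, Npc2 and Scap passed in every alternative fit. Fewer members passed with a sample of either group left out. Acaca, Fdps, Insig2 and Sqle no longer passed without Hh-CM replicate 2.

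**Figure D4:**
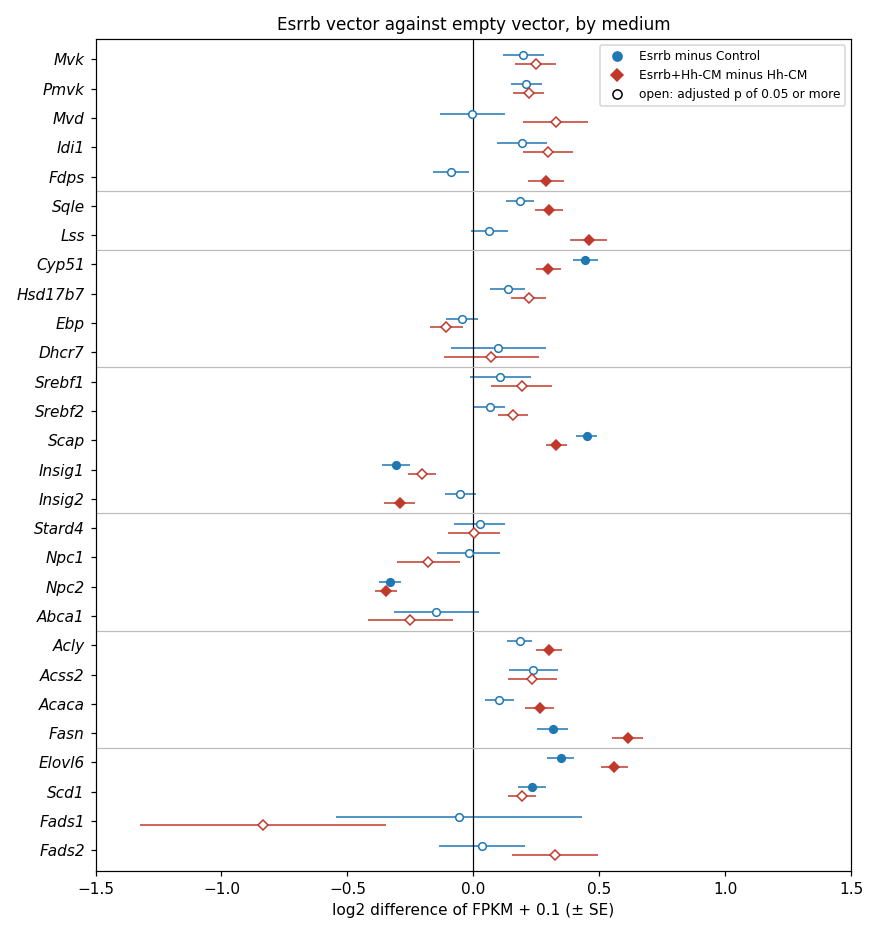
Log2 difference of FPKM + 0.1 between NIH3T3-Esrrb and NIH3T3-pc3.1 cells (means of 2 samples each, with SE) in vehicle (circles) and in Hh-CM (diamonds) for the 28 members. Filled symbols passed the adjusted p. Fasn and Elovl6 lie farthest to the right in Hh-CM at 0.61 and 0.56, and Npc2 is to the left in both.

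With both treatments, Control against Esrrb+Hh-CM, 11 members passed. Fasn, Abca1, Acaca, Sqle, Srebf2, Elovl6 and Acss2 rose, by 0.67 for Fasn (SE 0.062, adjusted p = 0.000748), 0.66 for Abca1 (adjusted p = 0.0283), 0.55 for Acaca (adjusted p = 0.00118) and 0.40 for Elovl6 (adjusted p = 0.00288). Insig2 fell by 1.14 (adjusted p = 0.000110) and Scd1 by 0.51 (adjusted p = 0.00140), and Npc2 and Insig1 fell too. In the fatty acid synthesis group 3 of 4 rose. In the mevalonate and late sterol groups 0 of the 9 that could be tested passed, with Nsdhl described apart. The rising share of 25% of members stood against 23% of all genes, and the falling share of 14.3% against 12%. Insig2 alone passed the added fold limit, as 6.21% of all genes did. With FPKM rescaled to equal medians the split was 5 up and 4 down. The count ran from 9 to 12 when each sample was left out, and the median difference was 0.07 for members and 0.08 for all genes.

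Whether the response to Hh-CM differed between the cells was tested as the interaction, the Hh-CM difference in NIH3T3-Esrrb minus that in NIH3T3-pc3.1 cells. In limma 0 of the 28 members passed, where 0.758% of all genes passed upward and 0.593% downward. At an unadjusted p below 0.05 there were 5, namely Lss (0.39, 95% interval 0.14 to 0.65, adjusted p = 0.134), Fdps (0.38, adjusted p = 0.136), Fasn (0.30, adjusted p = 0.165), Elovl6 (0.21, adjusted p = 0.226) and Insig2 (-0.24, adjusted p = 0.235). The interval for Scd1 was -0.24 to 0.15 around -0.04. Fads1 passed in the fit without Hh-CM replicate 2 (adjusted p = 0.0146), which leaves Hh-CM replicate 1 as the only sample of its group. The 2 Hh-CM comparisons share no sample, and 25 of 28 members had the same sign in both (89.3%, against 66.9% of all genes tested), with Pearson's r of 0.822 across the 28 genes and 0.353 across all. Fdps, Elovl6 and Dhcr7 were the members that differed in sign. For the 2 Esrrb comparisons, which also share no sample, 26 of 28 had the same sign (92.9%, against 68.5%), with r of 0.677 and 0.266. Genes are not independent replicates, and these are descriptions.

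Fdft1, squalene synthase, takes the first step that leads only to sterols. Its row, chr14:63763988-63796630 in mm9, was at 35.6 and 35.9 FPKM in Control, 31.0 and 31.8 in Hh-CM, and 34.7 and 32.7 in Esrrb+Hh-CM samples, and was listed at 0 in both Esrrb samples with the status OK. Each Esrrb table also held a small row inside the gene, at FPKM 1.305 in replicate 1 and 1.204 in replicate 2. These rows lie at different positions and do not overlap. Its Hh-CM difference in NIH3T3-pc3.1 cells was -0.19 (SE 0.056, adjusted p = 0.0738). The neighbouring row of Ctsb, the lysosomal protease cathepsin B, chosen after its values were seen, shares bases with the end of the Fdft1 row. Ctsb was at 180 and 185 in Control, 154 and 155 in Hh-CM, 211 and 218 in Esrrb, and 137 and 149 in Esrrb+Hh-CM samples, highest in the samples where Fdft1 is at 0. The sum of both rows was 216 and 221 in Control and 211 and 218 in Esrrb samples. It was 185 and 186 in Hh-CM and 171 and 181 in Esrrb+Hh-CM samples. FPKM is scaled by length, so the sum is not a count of reads, and the part of Ctsb in the 0 was not tested. No fold change is given for Fdft1 in Esrrb samples.

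**Figure D5:**
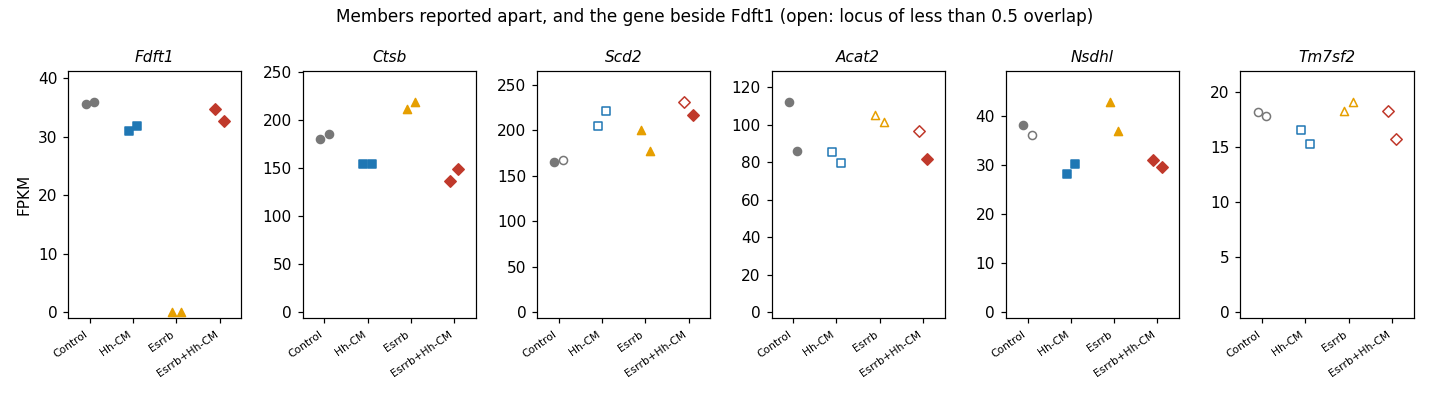
FPKM (from 0) of the members described apart and of Ctsb, the gene beside Fdft1, with 1 point a sample. Open symbols mark rows whose locus overlaps the gene by less than 0.5 of their joint length, and Fdft1 is at 0 in both Esrrb samples where Ctsb is at 211 and 218.

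Of the other members described apart, Hmgcs1, the HMG-CoA synthase, had no gene of that name in the annotation and no value. For the rest, the row of highest FPKM among those covering at least 0.5 of the gene was used. This alternative was chosen in part after the tables were seen, and such a row can include a neighbour. Nsdhl, a late sterol dehydrogenase on chromosome X, was at 38.2 and 36.3 FPKM in Control, 28.3 and 30.3 in Hh-CM, 42.9 and 36.9 in Esrrb, and 31.1 and 29.6 in Esrrb+Hh-CM samples, and the merged row was that of Control replicate 2. All samples with Hh-CM were below those with vehicle, and Nsdhl fell by 0.35 and by 0.39 with Hh-CM in the 2 kinds of cell (adjusted p = 0.0446 and 0.0252). Scd2, a desaturase beside Scd1, was at 165 and 167 in Control, 204 and 222 in Hh-CM, 200 and 177 in Esrrb, and 231 and 217 in Esrrb+Hh-CM samples, with 4 of the 8 rows merged with up to 90388 bases beyond the gene. Both Hh-CM rows are merged ones, reaching 39879 bases beyond it, while that of Control replicate 1 is the gene alone, and the part of the merging in the difference was not tested. On these rows Scd2 rose with Hh-CM in NIH3T3-pc3.1 cells (0.36, adjusted p = 0.0285), and its difference was 0.25 in NIH3T3-Esrrb cells (adjusted p = 0.0672). Between Control and Esrrb+Hh-CM the log2 differences were 0.43 for Scd2 and -0.29 for Nsdhl (adjusted p = 0.00875 and 0.0445). On such rows Acat2, a cytosolic thiolase (79.7 to 112), and Tm7sf2, a sterol reductase (15.2 to 19.0), passed in no comparison. The Acat2 rows of Esrrb samples, Hh-CM samples and Esrrb+Hh-CM replicate 1 reached 18931 bases beyond the gene, while those of Control did not. Every Tm7sf2 row reached 8814 to 8825 bases beyond the gene, so none measured Tm7sf2 alone.

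Related lipid genes were read from 2 further lists. The sterol list also holds Pcyt2, of phosphatidylethanolamine synthesis, and the fatty acid list holds Cpt1a, of fatty acid oxidation. Both are counted below. Of 28 other sterol genes 20 could be tested. With Hh-CM, 3 rose and 2 fell in NIH3T3-pc3.1 cells (15% and 10%, against 10.5% and 7.53% of all genes), and 4 rose and 2 fell in NIH3T3-Esrrb cells (20% and 10%, against 13.9% and 9.49%). With Esrrb none fell, while 4 rose in vehicle (20%, against 10.2%) and 6 in Hh-CM (30%, against 12.4%). With both, 7 rose and 2 fell (35% and 10%, against 23% and 12%). Of 30 other fatty acid genes 22 could be tested. With Hh-CM, 2 rose and 4 fell in NIH3T3-pc3.1 cells (9.09% and 18.2%), and 4 rose and 6 fell in NIH3T3-Esrrb cells (18.2% and 27.3%), against the same shares of all genes. With Esrrb, 4 rose and 1 fell in each medium (18.2% and 4.55%, against 10.2% and 6.16% of all genes in vehicle and 12.4% and 6.52% in Hh-CM). With both, 6 rose and 5 fell (27.3% and 22.7%, against 23% and 12%). Several of these shares are near those of all genes. In the interaction 0 passed in either list, with 4 in each at an unadjusted p below 0.05.

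Among the genes of both lists that passed, the largest difference with Hh-CM was that of Cpt1a, which admits long-chain fatty acids to mitochondria for oxidation. It fell by 1.202 in NIH3T3-pc3.1 (SE 0.033, adjusted p = 3.01e-05) and by 1.35 in NIH3T3-Esrrb cells (adjusted p = 1.65e-05). Next in NIH3T3-pc3.1 cells were the lipoprotein receptor Lrp8 (0.77 higher, adjusted p = 0.0249) and the acyl-CoA synthetase Acsl1, which fell by 0.57 (adjusted p = 0.00611). In NIH3T3-Esrrb cells they were Lrp8 (0.84 higher, adjusted p = 0.0141) and the elongation dehydratase Ptplb, which fell by 0.74 (adjusted p = 0.00115). With Esrrb the largest among those that passed was Pcyt2, of phosphatidylethanolamine synthesis, 1.06 higher in vehicle (SE 0.180, adjusted p = 0.0163) and 1.28 higher in Hh-CM (adjusted p = 0.00825). The very low density lipoprotein receptor Vldlr followed at 0.52 and 0.51 (adjusted p = 0.0230 and 0.0208), then the acyl-CoA synthetase Acsl4 in vehicle (0.44, adjusted p = 0.00368) and the sterol reductase Lbr in Hh-CM (0.49, adjusted p = 0.0142). With both treatments Pcyt2 was 1.38 and Vldlr 0.96 above Control (adjusted p = 0.00267 and 0.00106), and Cpt1a fell by 1.14 (adjusted p = 2.05e-05).

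Since Fasn, Elovl6 and Scd1 are also high in fat cells, the adipocyte list was read beside them. Of its 10 genes 3 reached FPKM 1 in at least 2 samples, and Adipoq, Cidec, Lep and Cebpa were at 0 in all 8. The summed level was 114 to 121 FPKM in Control, 146 to 147 in Hh-CM, 138 to 143 in Esrrb and 178.0 to 178.2 in Esrrb+Hh-CM samples, and its part in the results was not tested. Most of the sum was Lpl, the lipoprotein lipase, at 104 and 110 in Control and 176 and 174 in Esrrb+Hh-CM samples, and Lpl rose in all 5 comparisons. Fabp4, a fatty acid binding protein, went the other way, from 8.40 and 9.34 in Control to 1.35 and 2.11 in Esrrb+Hh-CM samples, where it fell by 2.32 (adjusted p = 0.000665), and it fell in the other 4 comparisons too. Retn, which encodes resistin, was at 1.64 and 2.10 in Control and 0.592 and 1.17 in Hh-CM samples (log2 difference -1.06, adjusted p = 0.102) and passed in no comparison. In bulk RNA, fewer cells of a type and less RNA per cell cannot be told apart.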

How the data were processed

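RNA-Seq (TruSeq Stranded mRNA, HiSeq) of 8 samples was analysed. The authors trimmed reads with FASTX-Toolkit, aligned them to mm9 (TopHat2 with Bowtie2) and ran Cufflinks on each sample; the deposited values are FPKM per locus, with no read counts. Cuffdiff comparisons of the study were not used here. Loci were given to the GENCODE vM1 gene of largest overlap (Jaccard 0.5 or more, best row kept), 20197 genes having a value in all samples. The fit was by group in limma 3.58.1 (R 4.3.3), on the scale log2(FPKM + 0.1), which understates changes of low genes, with a variance trend and Benjamini-Hochberg adjustment over the 10284 genes with FPKM of 1 or more in at least 2 samples; intervals are 95% t intervals. The fit was tested on simulated data with log2 changes of 1 and 2 in size, whereas most changes reported here were smaller. An exact permutation of 2 against 2 samples gives no p below 0.33. Fold changes are from the fit. Per-sample values are given for members that passed in 2 or more comparisons or changed by a log2 of 1, for Srebf1 and Srebf2, and for members listed at 0; of the other pathway genes the 3 largest per comparison are named. Members and lists were chosen with earlier results of these data known. Alternatives were other pseudocounts (1 and 0.001), FPKM limits, row rules and scalings, no variance trend, the replicate block, only the compared groups, the added fold limit and each sample left out.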

Additional observations from a re-analysis of the deposited data

Results flagged for a closer look

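Fdft1 is the member whose interaction value passed in limma (adjusted p = 7.446e-07). The value follows from the rows listed at 0 in both Esrrb samples, for which Fdft1 had already been set apart, and the fitted size depends on the pseudocount, so it is no test of a differing Hh-CM response and no size is given. The neighbouring Ctsb row was highest in the same samples, at 211 and 218 FPKM, and its part in the 0 was not tested. No other member and no gene of the 2 further lists passed the interaction.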

How the results depend on the processing

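The 51 changes of single members that passed kept their sign under every alternative run, and 24 passed in each of the 20 other fits. With a sample left out, 98 of 408 values no longer passed, and with the other alternatives 43 of 612. Fitting only the compared groups gave counts of 6 for Control against Hh-CM, 3 for Control against Esrrb and 5 for Hh-CM against Esrrb+Hh-CM, on fewer samples. The added fold limit left 0 for Control against Hh-CM, 0 for Control against Esrrb, 1 for Control against Esrrb+Hh-CM, 0 for Hh-CM against Esrrb+Hh-CM and 1 for Esrrb against Esrrb+Hh-CM. With each sample left out in turn, a lone sample being assumed to vary like the other groups, the counts ran from 3 to 10, 3 to 8, 9 to 12, 5 to 10 and 5 to 10 in the same order, and from 0 to 1 for the interaction. Equal replicate numbers did not pair the samples (correlations of deviations from -0.0596 to 0.0623), and the replicate block gave counts of 8, 5, 10, 9, 10 and 0. Promoter shares over the 250 bases before the start alone were 58.8% for CCAAT and 14.7% for the E-box, against 33.8% and 6.02% of all promoters, and Fdft1 stayed at 0 with the highest overlapping row. Leaving out the 92 genes at 0 in both samples of a group was an alternative chosen after seeing the data. Without read counts, depth is known only as a ratio between samples.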
